A study of Mus musculus with 12 samples.

Results

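The genes described here are 10 components of the inflammasome pathway in mouse macrophages: the sensors Nlrp3, Nlrp1b, Nlrc4, Aim2 and Mefv, the adaptor Pycard, the caspases Casp1 and Casp4, the pore protein Gsdmd and the cytokine Il18. They were chosen by symbol from a table of 54532 genes, in which each symbol had 1 row, and all 10 passed the filter on low counts that left 14286 genes for testing. Reads per gene were counted in 12 libraries of bone marrow-derived macrophages, cells grown from the marrow of mice 8 weeks old in medium with 10 ng/ml M-CSF, which makes marrow precursors become macrophages. The 4 groups, with 3 libraries each, were Hdac3f/f cells without treatment, Hdac3f/f cells with 500 ng/ml lipopolysaccharide (LPS, a bacterial cell wall component) for 4 h, and Lyz2-Cre-Hdac3f/f cells without and with that LPS. Hdac3 encodes histone deacetylase 3, the enzyme of the NCoR and SMRT corepressor complexes. All groups carry the floxed Hdac3 alleles, and the Lyz2-Cre genotype adds Cre recombinase made from the Lyz2 locus, which is active in myeloid cells. A group given here as Lyz2-Cre is therefore Lyz2-Cre-Hdac3f/f, and its comparison with Hdac3f/f includes the Cre insertion as well as its action on Hdac3. Nothing in the labels ties a replicate to an animal, so p-values measure the spread between these libraries, which may be technical.

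An inflammasome is a protein complex that forms in the cytosol when a sensor meets a microbial product or a sign of damage. The sensor recruits the adaptor ASC (Pycard) and through it caspase-1, which cuts the precursors of interleukin 1 beta and interleukin 18 into their active forms and cuts gasdermin D, whose released end opens pores in the plasma membrane and causes the death called pyroptosis. In macrophages LPS gives the priming signal: it induces the messages of some components, while assembly needs a later, separate trigger. Caspase-4 of the mouse, also known as caspase-11, binds LPS inside the cell and cuts gasdermin D by a route that needs no sensor of the NLR family. Messenger RNA levels, the quantity measured here, do not show whether the proteins were cut or assembled.

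The sequences before the start sites of 4 of these genes are shown because the genes stand for different responses below: Nlrp3 and Casp4 rose in both genotypes with no called difference between them in the LPS response, Il18 rose much less in Lyz2-Cre cells, and Nlrp1b fell. They come from the RefSeq promoter table (build GRCm38.p6, the assembly called mm10), in which 9 of the 10 genes were found and Gsdmd was not. Each is the part of the 250 bases before the start site that meets no annotated exon, 5′ to 3′ on the gene's strand, and capitals mark matches to the NF-kB site, the motif bound by the NF-kB factors that LPS activates. Nlrp3 is read at chr11:59541319-59541567 (plus strand), Casp4 at chr9:5308599-5308827 (plus), Il18 at chr9:50554450-50554699 (plus) and Nlrp1b at chr11:71230734-71230983 (minus).
Nlrp3: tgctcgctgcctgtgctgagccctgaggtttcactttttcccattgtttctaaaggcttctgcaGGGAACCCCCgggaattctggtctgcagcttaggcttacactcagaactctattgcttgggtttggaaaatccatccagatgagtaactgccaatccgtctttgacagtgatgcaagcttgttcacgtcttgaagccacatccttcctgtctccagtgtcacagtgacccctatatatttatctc
Casp4: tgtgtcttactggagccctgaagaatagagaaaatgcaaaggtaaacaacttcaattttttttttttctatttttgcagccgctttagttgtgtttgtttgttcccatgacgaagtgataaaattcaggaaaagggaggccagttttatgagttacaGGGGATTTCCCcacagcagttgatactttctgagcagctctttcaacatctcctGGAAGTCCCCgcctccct
Il18: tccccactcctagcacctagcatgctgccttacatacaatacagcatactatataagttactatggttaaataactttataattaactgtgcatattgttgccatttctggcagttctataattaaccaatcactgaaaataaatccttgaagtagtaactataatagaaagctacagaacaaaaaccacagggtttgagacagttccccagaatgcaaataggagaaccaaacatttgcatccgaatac
Nlrp1b: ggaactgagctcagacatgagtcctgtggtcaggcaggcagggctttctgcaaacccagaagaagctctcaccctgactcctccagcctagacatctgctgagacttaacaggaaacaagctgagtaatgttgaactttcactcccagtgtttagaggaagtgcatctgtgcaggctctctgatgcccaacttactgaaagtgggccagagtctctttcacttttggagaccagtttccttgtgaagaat
Both strands of the 250 bases were searched. The NF-kB site had a match at Nlrp3, from base -186 to -177 before the start, and at Casp4, where a match from -93 to -84 overlapped another from -92 to -83 and a further match lay on the opposite strand from -39 to -30. These were the only members of the 9 with a match to it, against 7.25% of 32851 mouse promoters. The interferon-stimulated response element, searched as GAAA, any 2 bases and GAAA again (2.98% of promoters), the STAT motif TTCNNNGAA (7.02%) and the AP-1 motif TGANTCA (6.75%) had no match in any of the 9. A match is only a run of letters, and the absence of one covers only this window.

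Library totals lay between 16553432 and 18706990 counts, and levels are given in CPM, the count relative to the library size after TMM scaling. Counting error alone was exceeded within each replicate pair (chi-square of 8.65 or more per gene). Hdac3 itself was not called different between the genotypes: Hdac3f/f and Lyz2-Cre cells had means of 38.4 and 34.9 CPM without and 39.5 and 37.1 CPM with LPS. The count spans the whole gene and does not separate the floxed exons, so it does not check the deletion. Markers of macrophages were abundant in all groups (10 of 10 tested, with a summed level between 6904 and 26575 CPM), but Lyz2 was 31.0 CPM in replicate 1 of untreated Lyz2-Cre against 5181 and 5637 in the others of that group. Lyz2, the locus that carries Cre, gave 9318 to 11990 CPM of a sum of 15102 to 18666 in untreated Hdac3f/f. Of the 10 macrophage markers 1 was higher and 1 lower in untreated Lyz2-Cre, and 3 were higher and 4 lower with LPS. Markers of other cells moved with genotype too. The stromal list summed to 316 to 1540 CPM in untreated Hdac3f/f, 889 to 1845 with LPS, 19.8 to 196 in untreated Lyz2-Cre and 29.5 to 40.2 in Lyz2-Cre with LPS, and 7 of its 7 tested genes were lower in Lyz2-Cre with LPS. Stromal markers were thus lower in the Lyz2-Cre genotype, while the dendritic cell, mast cell and basophil, and lymphocyte lists had genes that were higher in it. The dendritic cell list summed to 31.3 to 36.2, 70.5 to 77.2, 85.2 to 109 and 469.8 to 488 CPM in the same order of groups. Only 2 of its 6 tested genes were higher in Lyz2-Cre, without and with LPS. Most of the sum was the integrin gene Itgax, at 97.4, 98.1 and 65.9 CPM in untreated Lyz2-Cre and 438, 444 and 418 CPM with LPS. Flt3, Xcr1, Clec9a and Siglech stayed under 2 CPM in every library. Mast cell and basophil markers (103 to 127, 204 to 288, 162 to 237 and 208 to 366 CPM) had 6 of 8 higher in untreated Lyz2-Cre and 5 higher and 1 lower with LPS. Lymphocyte markers (11.2 to 13.5, 23.1 to 51.5, 20.6 to 28.6 and 49.3 to 87.3 CPM) had 5 of 7 tested higher in Lyz2-Cre with and without LPS. These 3 lists were highest in Lyz2-Cre cells with LPS by their top library. Neutrophil markers summed to 219 to 382, 131 to 302, 57.1 to 161 and 103 to 371 CPM, with Ly6g and Retnlg under 0.3 CPM in every library. Of the 8 tested neutrophil genes 2 were lower and 0 higher in untreated Lyz2-Cre, and 0 were called between genotypes with LPS. The part of these other cells in the results below was not tested, and in bulk RNA fewer cells of a type cannot be told apart from less RNA per cell.

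Replicate 2 of untreated Lyz2-Cre and replicate 2 of Lyz2-Cre with LPS stood apart at the Nlrp1 genes, which lie side by side on chromosome 11 and resemble each other. Nlrp1a had 1 and 0 counts in these libraries, against 53 and 62 in the other untreated and 19 and 17 in the other LPS-treated Lyz2-Cre libraries. The pseudogene Nlrp1c-ps had 0 counts in both, against 90 and 107 in the other untreated Lyz2-Cre libraries. Nlrp1b was present in both. Whether these libraries carry the same Nlrp1 alleles as the others was not tested. Leaving both out changed 6 of the 50 calls made on the 10 genes (5 comparisons each), and each of the 6 is given below. In the LPS response of Lyz2-Cre cells it changed none, with log2 fold changes of 4.70 for Nlrp3, 1.75 for Il18, 0.66 for Gsdmd and -2.76 for Nlrp1b.

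LPS raised most of the pathway in Hdac3f/f macrophages. Of the 10 genes 7 were called higher (Benjamini-Hochberg adjusted p under 0.05 over all tested genes, edgeR's quasi-likelihood test), 1 lower and 2 in neither direction, where 60.1% of all tested genes were called, 28% higher and 32.1% lower. The median log2 fold change of the 10 was 2.05, against -0.08 over all tested genes. In Lyz2-Cre cells 7 rose, 2 fell and 1 was not called (background 52.9%, with 25.2% higher and 27.7% lower), with a median of 1.53 against -0.08. In each genotype 9 of the 10 had LPS-treated and untreated libraries that did not overlap, as did 61.4% and 65.8% of all tested genes. With library totals in place of TMM the median of all genes moved to -0.72 in Hdac3f/f and -0.46 in Lyz2-Cre cells, and the share of calls that were rises went from 46.5% to 20.2% and from 47.7% to 24.6%, so LPS changes here are relative to a scaling that sets the middle of all genes near 0.

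**Figure D1:**
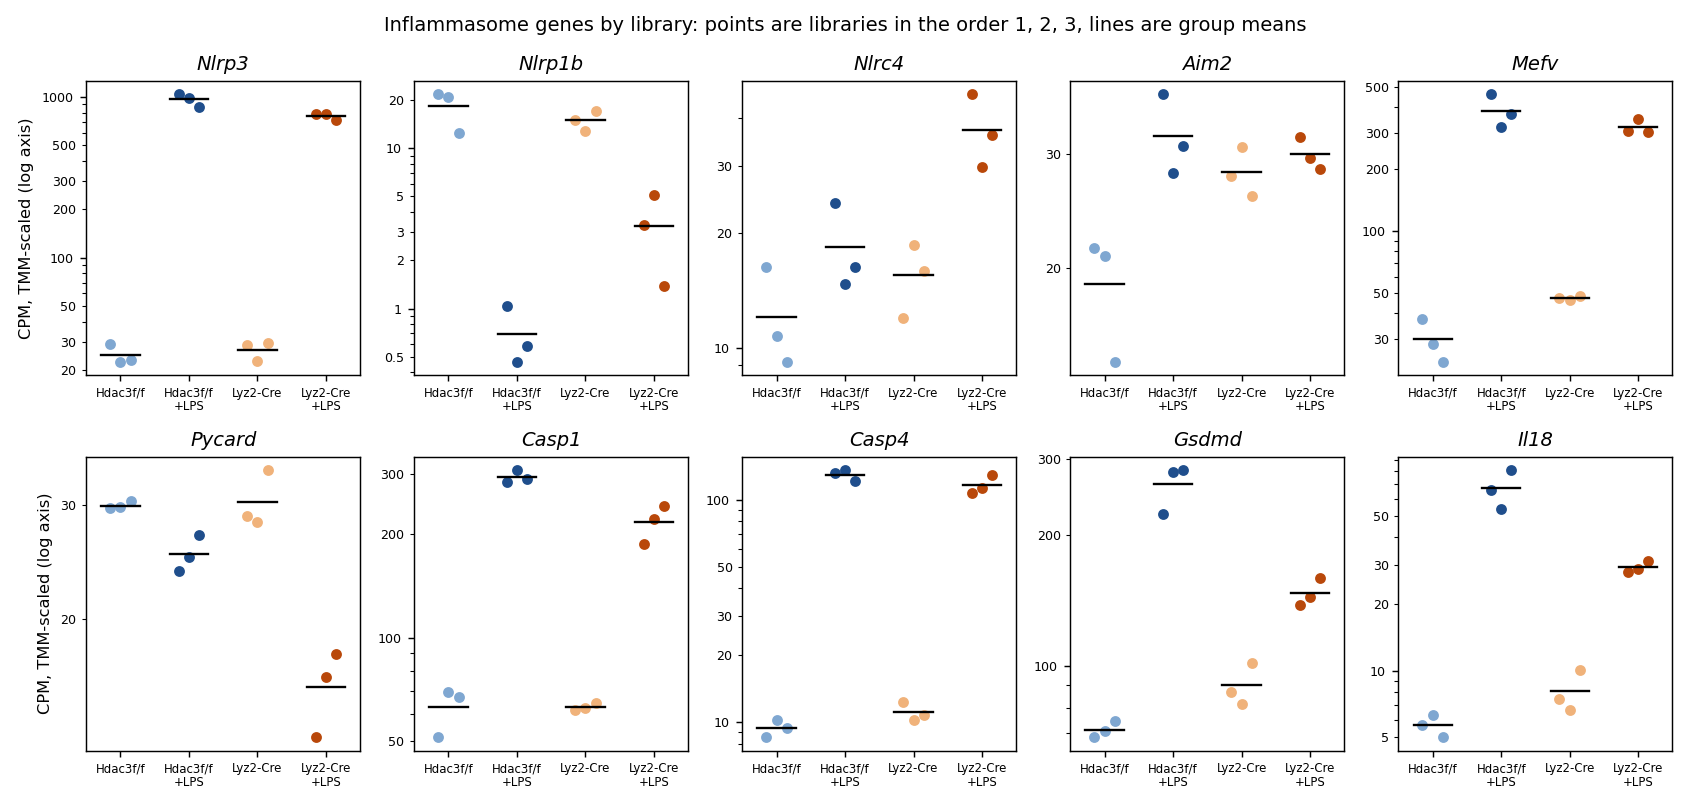
Level of each of the 10 genes in CPM (TMM-scaled, log axis that differs between panels) in the 12 libraries. Points are libraries 1 to 3 of a group from left to right, and lines are group means. Nlrp3, Mefv, Casp1, Casp4, Gsdmd and Il18 stood higher in every LPS-treated library than in any untreated library of either genotype, and Nlrp1b and Pycard stood lower.

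Genes are placed below on mm10 by the file's coordinates, which GENCODE M21 repeats for all 10. Among the sensors Nlrp3 (ENSMUSG00000032691, chr11:59541568-59566956), which responds to ion efflux and many kinds of cell damage, rose furthest. Its level was 28.8, 22.5 and 23.1 CPM in the untreated Hdac3f/f libraries and 1039.5, 989 and 871 with LPS. In Lyz2-Cre cells it was 28.4, 22.6 and 29.4 CPM untreated and 780.4, 780.4 and 719.6 with LPS. The untreated groups overlapped, the LPS-treated groups were far above them, and all Lyz2-Cre libraries with LPS lay below all Hdac3f/f libraries with LPS. The rise was 38.9-fold in Hdac3f/f (log2 fold change 5.28 ± 0.15 SE, adjusted p = 3.3e-11) and 28.4-fold in Lyz2-Cre cells (4.83 ± 0.15, adjusted p = 1.1e-10). The difference between genotypes with LPS, -0.35 ± 0.13 on the log2 scale, missed the threshold (adjusted p = 0.0512). It passed in 7 of 22 other settings, among them those without replicate 1 of untreated Hdac3f/f (adjusted p = 0.0302) and without replicate 2 of untreated Lyz2-Cre (0.0428), and the LPS responses were not called different (-0.45 ± 0.18, adjusted p = 0.152). With library totals the genotype difference with LPS was -0.08.

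Mefv (ENSMUSG00000022534, chr16:3707218-3718097) encodes pyrin, which responds to bacterial toxins that switch off RhoA. It was at 37.8, 28.6 and 23.4 CPM in untreated and 459, 318 and 368 CPM in LPS-treated Hdac3f/f libraries. The Lyz2-Cre libraries had 47.4, 46.4 and 48.6 CPM untreated and 306, 349 and 301 CPM with LPS. Without LPS every Lyz2-Cre library was above every Hdac3f/f library, while with LPS the genotypes overlapped. Mefv rose 12.7-fold in Hdac3f/f (log2 fold change 3.67 ± 0.18, adjusted p = 2.5e-09) and 6.72-fold in Lyz2-Cre cells (2.75 ± 0.17, adjusted p = 3.5e-08). The response was smaller in Lyz2-Cre cells by 0.92 ± 0.23 on the log2 scale, an interaction of -0.92 (adjusted p = 0.0293). This call was lost in 11 of 21 other settings, including the fits without replicate 2 or 3 of untreated Hdac3f/f, replicate 3 of Hdac3f/f with LPS, any replicate of untreated Lyz2-Cre, or replicate 1 or 3 of Lyz2-Cre with LPS (adjusted p from 0.0556 to 0.0853).

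Aim2 (ENSMUSG00000037860, chr1:173350879-173466040) encodes a sensor of double-stranded DNA in the cytosol. Its levels were 21.5, 20.9 and 14.3 CPM in untreated and 37.1, 28.1 and 30.8 CPM in LPS-treated Hdac3f/f libraries, with no overlap. In Lyz2-Cre libraries they were 27.7, 30.8 and 25.8 CPM untreated and 31.9, 29.5 and 28.4 CPM with LPS, which overlapped. Aim2 rose in Hdac3f/f (log2 fold change 0.76 ± 0.16, adjusted p = 9.9e-04) and was not called in Lyz2-Cre cells (0.09 ± 0.16, adjusted p = 0.647). The difference between these responses, -0.67 ± 0.22, was not called (adjusted p = 0.0850) except with DESeq2 (adjusted p = 0.0234). With library totals the response in Hdac3f/f was 0.12 and not called, and that in Lyz2-Cre cells was -0.30.

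Nlrc4 (ENSMUSG00000039193, chr17:74425438-74459142) is activated through NAIP proteins that bind bacterial flagellin and secretion needles. The Hdac3f/f libraries held 16.3, 10.7 and 9.20 CPM untreated and 23.97, 14.7 and 16.3 CPM with LPS, which overlapped, and the Lyz2-Cre libraries held 11.95, 18.6 and 15.9 CPM untreated and 46.1, 29.7 and 36.1 CPM with LPS, which did not. Every Lyz2-Cre library with LPS was above all other libraries of the study. Nlrc4 rose 2.41-fold in Lyz2-Cre cells (log2 fold change 1.27 ± 0.25, adjusted p = 9.1e-04). In Hdac3f/f the change was 0.60 ± 0.26 and missed the threshold (adjusted p = 0.0588); it passed in 6 of 22 other settings. These were the fits without replicate 1 of untreated Hdac3f/f (0.88, adjusted p = 0.0100) or replicate 2 of Hdac3f/f with LPS (0.73, adjusted p = 0.0392), with DESeq2's size factors (adjusted p = 0.0339), with DESeq2 itself (adjusted p = 0.0199), with no filter (adjusted p = 0.00739) and with a replicate block (adjusted p = 0.0427). With library totals the change was -0.04. With LPS the gene was 2.03-fold higher in Lyz2-Cre than in Hdac3f/f cells (log2 fold change 1.02 ± 0.25, adjusted p = 0.00947), and the interaction was not called (0.67 ± 0.36, adjusted p = 0.292).

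Nlrp1b (ENSMUSG00000070390, chr11:71153102-71230733), a sensor that is cut by anthrax lethal factor and otherwise held in check by DPP8 and DPP9, was the sensor that fell. Its levels were 21.6, 20.7 and 12.4 CPM in untreated Hdac3f/f libraries and 1.04, 0.468 and 0.581 CPM with LPS, the latter from only 15, 6 and 8 counts. In Lyz2-Cre libraries it was at 14.96, 12.9 and 17.1 CPM untreated and 3.32, 5.14 and 1.38 CPM with LPS, from 55, 89 and 22 counts. All LPS-treated libraries lay below all untreated ones, and with LPS all Lyz2-Cre libraries lay above all Hdac3f/f libraries. The log2 fold change with LPS was -4.68 ± 0.45 in Hdac3f/f (adjusted p = 1.1e-06) and -2.18 ± 0.36 in Lyz2-Cre cells (adjusted p = 2.0e-04). With LPS the gene was higher in Lyz2-Cre cells by 2.22 ± 0.48 (adjusted p = 0.00501), and the interaction was 2.51 ± 0.58 (adjusted p = 0.0213). Without both replicates 2 of Lyz2-Cre these were 1.73 (adjusted p = 0.0303) and 1.92, the latter no longer called (adjusted p = 0.108). The interaction was also lost without replicate 2 of untreated Hdac3f/f, replicate 2 or 3 of Hdac3f/f with LPS, or replicate 1 or 2 of Lyz2-Cre with LPS, 1 at a time (adjusted p from 0.0501 to 0.0641), with limma-voom (2.33, adjusted p = 0.0812) and in a test against a change of 0.5 (adjusted p = 0.0736). When the counts of Nlrp1a, Nlrp1b and Nlrp1c-ps were summed into 1 feature, the falls were -3.49 and -2.29, and neither the genotype difference with LPS (0.54, adjusted p = 0.263) nor the interaction (1.20, adjusted p = 0.129) was called. How reads that fit more than 1 of these copies were counted is not given in the sources used here, so the values of Nlrp1b are uncertain.

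**Figure D2:**
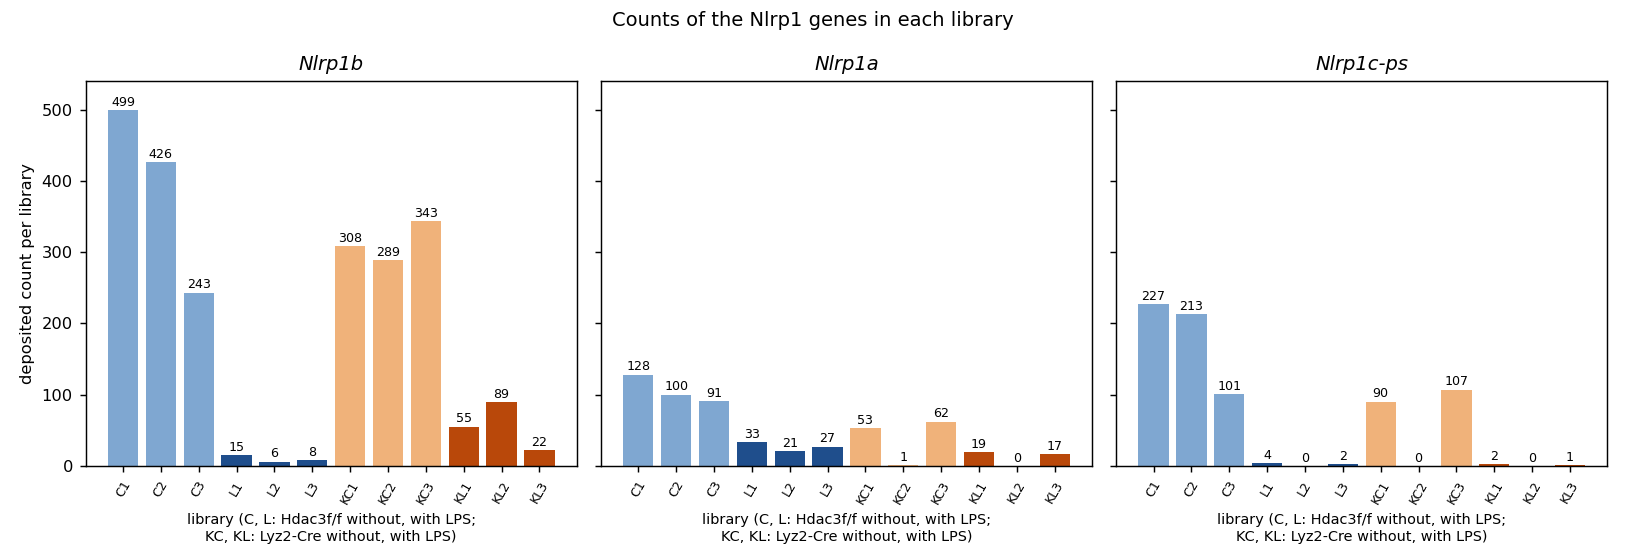
Bars give the deposited counts of Nlrp1b, Nlrp1a and Nlrp1c-ps in each of the 12 libraries (C and L, Hdac3f/f without and with LPS; KC and KL, Lyz2-Cre without and with LPS). Replicate 2 of untreated Lyz2-Cre had 289 counts of Nlrp1b with 1 of Nlrp1a and 0 of Nlrp1c-ps, and replicate 2 of Lyz2-Cre with LPS had 89, 0 and 0.

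The adaptor Pycard (ENSMUSG00000030793, chr7:127989708-127993867) fell with LPS in Lyz2-Cre cells and was not called in Hdac3f/f cells. Its level was 29.7, 29.7 and 30.4 CPM in untreated and 23.7, 24.9 and 26.996 CPM in LPS-treated Hdac3f/f libraries. The Lyz2-Cre libraries had 28.8, 28.2 and 33.98 CPM untreated and 13.1, 16.2 and 17.6 CPM with LPS, the lowest of all 12. Although the Hdac3f/f libraries did not overlap, their change was not called (log2 fold change -0.25 ± 0.12, adjusted p = 0.0998); with library totals it was -0.89 and called. In Lyz2-Cre cells Pycard fell by 0.95 ± 0.12 (adjusted p = 3.0e-05), and with LPS it was lower than in Hdac3f/f by 0.69 ± 0.13 on the log2 scale, a difference of -0.69 (adjusted p = 0.00190). The interaction of -0.71 ± 0.18 (adjusted p = 0.0276) was lost in 11 of 21 other settings. These included leaving out replicate 2 or 3 of either Hdac3f/f group, replicate 1 or 3 of untreated Lyz2-Cre, or replicate 1 or 2 of Lyz2-Cre with LPS (adjusted p from 0.0506 to 0.0927). An exon of Pycard overlaps the opposite-strand gene Gm45205, which had at most 2 counts in any library. Nlrc4, Aim2 and Il18 lie across other genes in the annotation, with no exon in common.

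Both caspases rose in both genotypes. Casp1 (ENSMUSG00000025888, chr9:5298517-5307265), the protease of the canonical inflammasome, was at 51.3, 69.6 and 67.2 CPM in untreated and 284, 307 and 289.8 CPM in LPS-treated Hdac3f/f libraries. In Lyz2-Cre libraries it was at 61.6, 62.2 and 64.4 CPM untreated and 187, 221 and 242 CPM with LPS. The untreated genotypes overlapped, and with LPS all Lyz2-Cre libraries were the lower ones. Casp1 rose 4.68-fold in Hdac3f/f (log2 fold change 2.23 ± 0.13, adjusted p = 1.0e-08) and 3.45-fold in Lyz2-Cre cells (1.79 ± 0.13, adjusted p = 1.1e-07). With LPS it was lower in Lyz2-Cre cells by 0.44 ± 0.12, a difference of -0.44 (adjusted p = 0.0172) that was lost in 6 of 22 other settings: without replicate 2 or 3 of Hdac3f/f with LPS or replicate 1 of Lyz2-Cre with LPS (adjusted p from 0.0531 to 0.0936), without both replicates 2 of Lyz2-Cre (-0.45, adjusted p = 0.0684), with library totals (-0.17, adjusted p = 0.205) and in a test against a change of 0.5. The interaction was -0.44 ± 0.17 and not called (adjusted p = 0.148).

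Casp4 (ENSMUSG00000033538, chr9:5308828-5336783), the LPS-binding caspase, lies next to Casp1. Its levels were 8.54, 10.2 and 9.36 CPM in untreated and 132, 136 and 121 CPM in LPS-treated Hdac3f/f libraries, and 12.3, 10.2 and 10.7 CPM in untreated and 107, 113 and 129 CPM in LPS-treated Lyz2-Cre libraries. The genotypes overlapped with LPS. Casp4 rose 13.8-fold in Hdac3f/f (log2 fold change 3.79 ± 0.12, adjusted p = 8.4e-11) and 10.5-fold in Lyz2-Cre cells (3.39 ± 0.12, adjusted p = 2.4e-10). No difference between the genotypes was called. It was 0.24 ± 0.12 in untreated cells (adjusted p = 0.193), -0.16 ± 0.11 after LPS (adjusted p = 0.286; 0.11 with library totals) and -0.40 ± 0.16 for the response itself (adjusted p = 0.152).

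Gsdmd (ENSMUSG00000022575, chr15:75862327-75867408), the precursor of the membrane pore, showed a clear order of the groups. It was at 68.3, 70.8 and 74.5 CPM in untreated Hdac3f/f, 87.0, 81.7 and 101 CPM in untreated Lyz2-Cre, 138, 144 and 159.6 CPM in Lyz2-Cre with LPS and 224, 280.2 and 283 CPM in Hdac3f/f with LPS. No group overlapped its neighbour in this order. Gsdmd rose 3.69-fold with LPS in Hdac3f/f (log2 fold change 1.88 ± 0.12, adjusted p = 2.4e-08) and 1.64-fold in Lyz2-Cre cells (0.71 ± 0.12, adjusted p = 2.0e-04). Without LPS the difference of 0.34 ± 0.12 between genotypes was not called (adjusted p = 0.0773). With LPS it was -0.83 ± 0.12 (adjusted p = 4.1e-04) and the interaction was -1.17 ± 0.16 (adjusted p = 0.00159), which was called in all 21 other settings, from -1.26 to -0.92.

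Il18 (ENSMUSG00000039217, chr9:50554827-50581840), the cytokine that acts on T and NK cells to raise interferon gamma, had the largest reduction of its LPS response among those of the 10 genes that rose. Its levels were 5.68, 6.33 and 5.01 CPM in untreated Hdac3f/f and 65.8, 53.6 and 80.6 CPM with LPS. In Lyz2-Cre cells they were 7.48, 6.63 and 10.1 CPM untreated and 28.1, 28.8 and 31.2 CPM with LPS. The Lyz2-Cre libraries were all higher than the Hdac3f/f libraries without LPS and all lower with LPS. Il18 rose 11.7-fold in Hdac3f/f (log2 fold change 3.55 ± 0.19, adjusted p = 4.7e-09) and 3.64-fold in Lyz2-Cre cells (1.86 ± 0.18, adjusted p = 1.8e-06). The difference between genotypes was 0.50 ± 0.18 without LPS, not called (adjusted p = 0.0951), and -1.18 ± 0.17 with LPS (adjusted p = 4.8e-04). The interaction of -1.69 ± 0.25 (adjusted p = 0.00222) was called in all 21 other settings, from -1.81 to -1.44, and was -1.80 (adjusted p = 0.0123) without both replicates 2 of Lyz2-Cre.

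**Figure D3:**
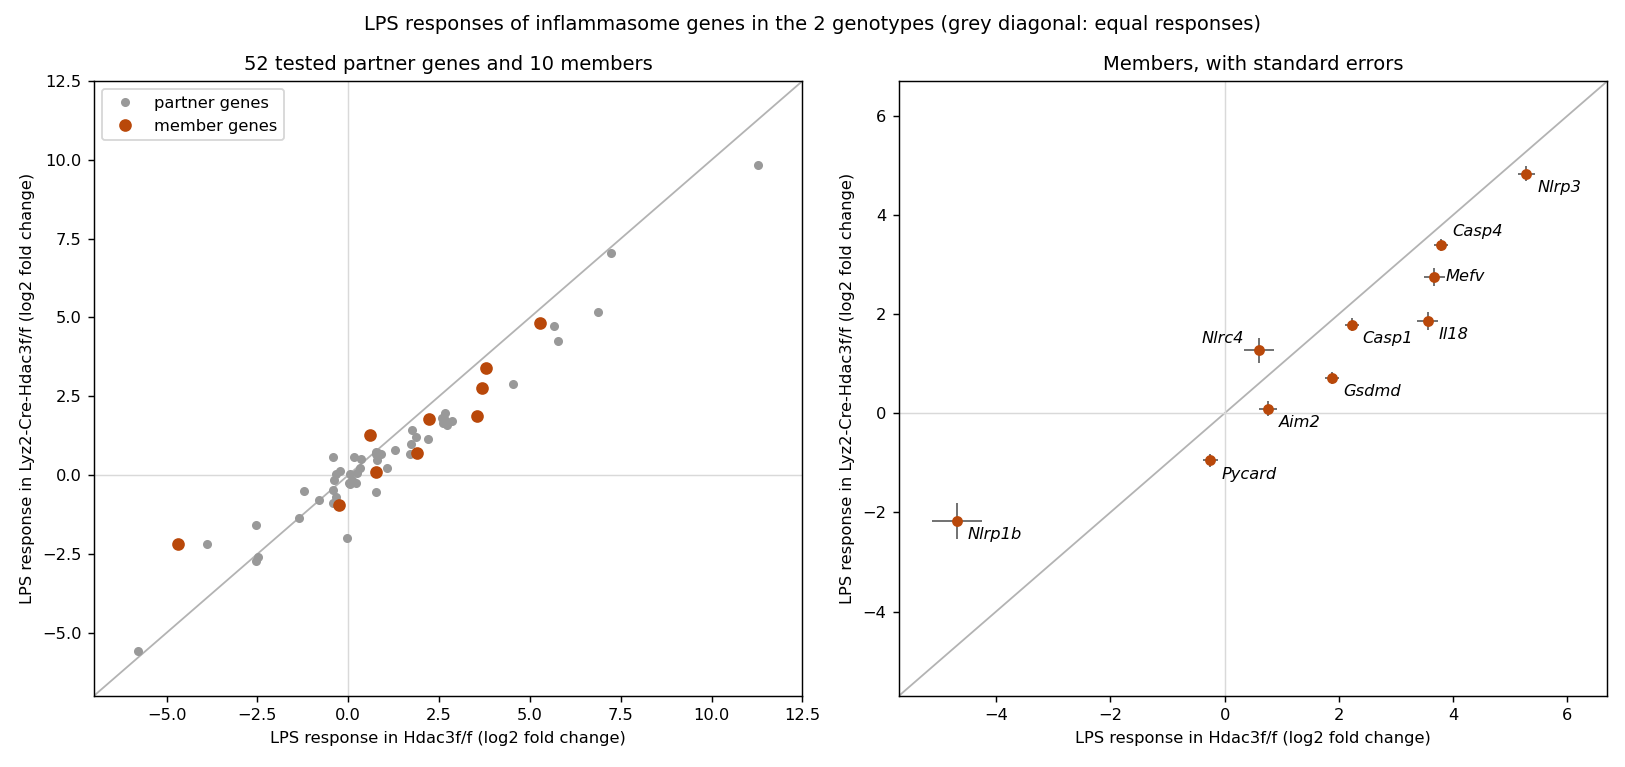
Log2 fold change with LPS in Lyz2-Cre cells (vertical) against that in Hdac3f/f cells (horizontal) for the 10 genes and 52 tested partner genes of the pathway (left) and for the 10 alone with SE bars (right), with the diagonal of equal response. Among the 10, Il18 and Gsdmd lay furthest below the line, at 1.86 against 3.55 and 0.71 against 1.88, and Nlrp1b and Nlrc4 lay above it.

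Fewer of the 10 genes were called between the genotypes before LPS than after it. Without LPS 2 of 10 were called higher in Lyz2-Cre cells and none lower (background 11.8%, with 5.12% higher and 6.66% lower): Mefv (log2 fold change 0.66 ± 0.17, adjusted p = 0.0238) and Aim2 (0.57 ± 0.16, adjusted p = 0.0335). The median of the 10 was 0.29, against 0.03 over all tested genes, and 5 had groups without overlap, as did 36.5% of all tested genes. The Mefv call was lost in 8 and the Aim2 call in 12 of 22 other settings. Without both replicates 2 of Lyz2-Cre none of the 10 was called, and 1 at a time the Mefv call was lost without replicate 2 or 3 of untreated Hdac3f/f or any replicate of untreated Lyz2-Cre (adjusted p from 0.0576 to 0.0955), and the Aim2 call without these, replicate 3 of Hdac3f/f with LPS, or replicate 1 or 3 of Lyz2-Cre with LPS (adjusted p from 0.0501 to 0.120).

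With LPS 2 of 10 were higher in Lyz2-Cre cells, Nlrp1b and Nlrc4, and 4 were lower, Il18, Gsdmd, Pycard and Casp1 (background 32.6%, with 15.7% higher and 16.9% lower). The median was -0.30, against 0.02 over all tested genes, and 7 of 10 had groups without overlap, against 43.2% of all. The interaction was called for 5 of 10, where 8.12% of all tested genes were called (2.58% higher and 5.54% lower): Il18, Gsdmd, Mefv and Pycard responded less, or fell more, in Lyz2-Cre cells, and Nlrp1b fell less. The median interaction of the 10 was -0.56, against 0.02. These comparisons share libraries, so their counts are not independent of each other. Without both replicates 2 of Lyz2-Cre the interaction was called for Il18 and Gsdmd alone, and 2 genes were higher and 3 lower with LPS. Without replicate 1 of untreated Lyz2-Cre, the library low in Lyz2, the interaction was -1.74 for Il18 (adjusted p = 0.00465), -1.19 for Gsdmd (adjusted p = 0.00403) and 2.51 for Nlrp1b (adjusted p = 0.0412), and the calls of Mefv and Pycard were lost. With library totals the median of all genes was 0.29 for the genotype difference with LPS and 0.27 for the interaction, and rises made up 77.1% of calls in place of 48.2% and 71.7% in place of 31.8%; Il18 (-0.92 and -1.44) and Gsdmd (-0.56 and -0.92) stayed called as lower in both.

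**Figure D4:**
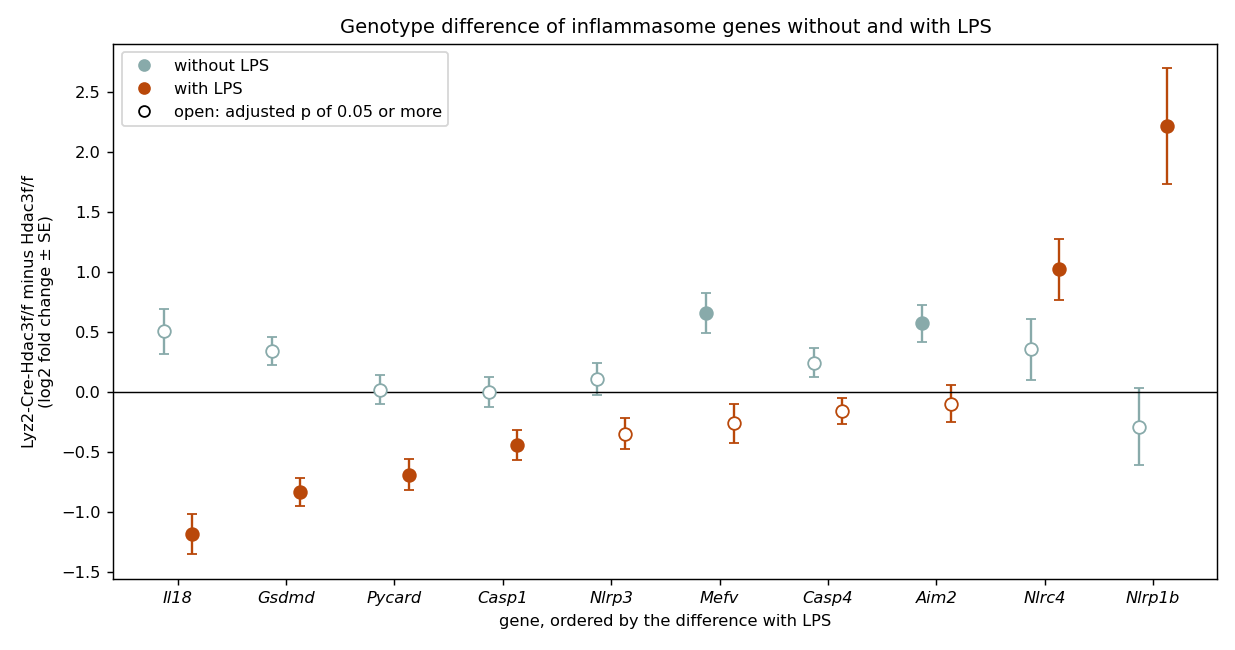
Log2 difference between genotypes (Lyz2-Cre minus Hdac3f/f) without and with LPS for the 10 genes, with SE bars and open circles where the adjusted p was 0.05 or more. Il18 went from 0.50 to -1.18 and Gsdmd from 0.34 to -0.83, while Nlrp1b went from -0.29 to 2.22.

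To compare levels between genes, CPM was divided by gene length in kilobases (RPKM). The lengths were those given by the authors, and whether they match the transcripts made in these cells was not tested. For Pycard the length was 3800 bases, nearly the whole span of the gene, introns included. A length above that of the transcript gives too low a value, so the order of genes below, and the place of Pycard in it, depends on these lengths. In untreated Hdac3f/f cells Casp1 led at 41.9, followed by Gsdmd at 29.9, Mefv at 9.21 and Pycard at 7.88, the last pair with overlapping libraries. Nlrp3 (6.12), Il18 (5.50) and Aim2 (5.40) overlapped below them, and Nlrp1b (2.90), Nlrc4 (2.55) and Casp4 (2.53) overlapped at the bottom. With LPS Nlrp3 became the most abundant of the 10 by this measure, at 238 RPKM, above Casp1 at 196, and Mefv at 117 overlapped Gsdmd at 110.4. Il18 (64.7), Casp4 (34.9), Aim2 (9.14), Pycard (6.63), Nlrc4 (3.87) and Nlrp1b (0.111) followed without overlap. In Lyz2-Cre cells with LPS the order began with Nlrp3 at 187, Casp1 at 145, Mefv at 98.0 and Gsdmd at 61.9, and Il18 (28.5) no longer stood above Casp4 (31.4), whose libraries it overlapped.

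The other genes of the pathway were read from a list of 56 symbols, of which 54 were in the table and 52 were tested. In Hdac3f/f cells 24 of these rose with LPS and 10 fell (28% and 32.1% of all tested genes), with a median log2 fold change of 0.76. In Lyz2-Cre cells 25 rose and 10 fell (25.2% and 27.7% of all tested genes), with a median of 0.54. The median over all tested genes was -0.08 in each genotype. Of the 8 tested Ifi200 genes, relatives of Aim2, 7 rose in each genotype. Of the 10 tested NLR and NAIP genes 1 rose and 5 fell in Hdac3f/f, and 1 rose and 6 fell in Lyz2-Cre cells. The largest rises in Hdac3f/f were those of Il1b (11.29 ± 0.48), Il1a (7.24 ± 0.25), Gbp5 (6.88 ± 0.34), a guanylate-binding protein, and Ifi205 (5.76 ± 0.24). The largest falls were those of Nlrp1c-ps (-5.80, from 4, 0 and 2 counts with LPS), Nlrc3 (-2.54, from 19, 14 and 10), Nlrp10 and Naip1. Nlrp10 had 30, 22 and 23 counts in untreated Hdac3f/f and 0, 1 and 2 with LPS, and Naip1 had 9, 4 and 7 and then 0, 1 and 1, too few for a fold change. Naip1 resembles the other Naip genes, so its counts are uncertain.

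Il1b, whose product is the other cytokine that caspase-1 activates, was not called different between the genotypes with LPS. It was at 1.26, 1.02 and 0.409 CPM in untreated Hdac3f/f and 2378, 2031 and 2485 CPM with LPS, and at 2.28, 0.979 and 4.63 CPM in untreated Lyz2-Cre and 2508, 2297 and 2405 CPM with LPS. The LPS-treated genotypes overlapped (log2 difference 0.06 ± 0.29, adjusted p = 0.889). The interaction of Il1b was -1.44 ± 0.56 and not called (adjusted p = 0.139), and it rests on untreated levels of 8 to 93 counts. The difference between Il18 and Il1b was not itself tested.

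The genotype comparisons of the listed partners gave, of 52, 15 higher and 2 lower without LPS (5.12% and 6.66% of all tested genes), and 5 higher and 13 lower with LPS (15.7% and 16.9%). In the interaction 1 was higher, the channel gene Panx1 (0.99), and 11 were lower (2.58% and 5.54% of all tested genes), with medians of 0.35, -0.17 and -0.29 in the 3 comparisons. Among these were Zbp1, a sensor of Z-form nucleic acids (-1.13, adjusted p = 0.00513), Ifi205 (-1.51, adjusted p = 0.00698), Gbp2 (-1.62, adjusted p = 0.00909) and Il18bp (-1.31, adjusted p = 0.0110). Of the 8 tested Ifi200 genes 3 were lower in the interaction, of the 15 activators and regulators 2, and of the 8 interleukin 1 family genes and of the 10 NLR and NAIP genes 1 each. Without both replicates 2 of Lyz2-Cre the counts were 5 higher and 1 lower without LPS, 2 and 4 with LPS, and 0 and 5 in the interaction. Zbp1, Ifi205, Gbp2 and Il18bp stayed called as lower in that interaction (adjusted p from 0.0250 to 0.0486), and Panx1 was not called (adjusted p = 0.0771).

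Il18bp, the secreted protein that binds and neutralises interleukin 18, went in opposite directions in the genotypes after TMM scaling. It was at 86.8, 81.0 and 87.1 CPM in untreated Hdac3f/f libraries and 111, 134 and 188 CPM with LPS, a rise of 0.76 ± 0.19 on the log2 scale (adjusted p = 0.00348). In Lyz2-Cre libraries it was at 146, 115 and 146 CPM untreated and 73.6, 93.5 and 112 CPM with LPS, where it fell by 0.55 ± 0.19 (adjusted p = 0.0263). Before scaling, the Hdac3f/f counts were 2001, 1665 and 1704 untreated and 1593, 1714 and 2591 with LPS, which overlapped. The rise in Hdac3f/f is therefore relative to the TMM scaling. The Lyz2-Cre counts, 3013, 2580 and 2936 untreated and 1219, 1618 and 1780 with LPS, did not overlap. The receptor subunits Il18r1 and Il18rap, named after their values were seen, were higher in Lyz2-Cre cells at both treatments. Il18r1 was higher by 1.99 ± 0.40 in untreated cells (adjusted p = 0.00814) and by 1.76 ± 0.39 after LPS (adjusted p = 0.00524), and Il18rap by 1.31 ± 0.31 (adjusted p = 0.0191) and 1.73 ± 0.32 (adjusted p = 0.00204). Without both replicates 2 of Lyz2-Cre these were 2.03 and 1.84 for Il18r1, both called, and 1.32 (adjusted p = 0.0697) and 1.76 for Il18rap, of which the second was called. Both genes were low, between 0.358 and 5.96 CPM for Il18r1 and between 1.33 and 9.48 CPM for Il18rap. Lymphocytes, which carry this receptor, had higher summed markers in untreated Lyz2-Cre cells (above). With LPS the sums overlapped (23.1 to 51.5 CPM in Hdac3f/f and 49.3 to 87.3 CPM in Lyz2-Cre). Most of each of these sums was Gzmb, at 16.3 to 39.1 CPM in Hdac3f/f and 29.5 to 59.2 CPM in Lyz2-Cre. Of the 7 tested lymphocyte genes 5 were called higher and 0 lower in Lyz2-Cre with LPS. Mast cell and basophil markers also had genes higher in Lyz2-Cre. The part of these cells in the receptor difference was not tested.

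The tested genes most like each of the 10 were found by the root mean square difference of centred log2 CPM over the 12 libraries, in which a smaller value is a closer match. Gsdmd was nearest to Irf7 (0.0869) and Psme1 (0.105). The genes nearest Il18 were 4933412E12Rik (0.173) and Trim30b (0.188). For Nlrp3 they were Vegfc (0.204) and Tnfaip3 (0.207), for Casp4 Lmo4 (0.161) and Gm6377 (0.167), and for Casp1 Cdyl2 (0.107) and Map2k1 (0.128). Mefv was nearest to Rapgef2 (0.117) and Igtp (0.171), Pycard to Phyh (0.115) and Sat1 (0.136), Aim2 to Sec23ip (0.0888) and Tmem209 (0.125), and Nlrc4 to Stard4 (0.208) and Stk3 (0.214). Nlrp1b had no close match, with Chek2 at 0.430.

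In the authors' deposited table, which compares the genotypes only, 2 of the 10 had an adjusted p under 0.05 without LPS, Aim2 (0.0239) and Mefv (0.00391). With LPS 7 did in the authors' deposited table, the 6 called here and Nlrp3 (0.0283).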

How the data were processed

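Counts of RNA sequencing reads per gene were deposited by the authors for 12 libraries as whole numbers. The submitters' processing notes name TopHat2 and build mm10, and the counting tool, strand setting and annotation release are not given in the sources used here. The authors also deposited FPKM values, group means of normalized counts (a signal column), log2 fold changes with Hdac3f/f over Lyz2-Cre, and p-values from a test they do not name. FPKM and group means were not used. The 10 members, the partner and marker lists, and the rule for named genes were chosen with earlier results of these data known. That rule took the 10 members, Il1b, the 6 partners with the lowest adjusted p in the interaction, and the 4 largest called rises and 4 largest falls with LPS in Hdac3f/f. Of the genes it took, 2 are not reported here.

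Genes were filtered with filterByExpr and scaled by TMM in edgeR 4.0.16 (R 4.3.3). The quasi-likelihood fit over all 12 libraries, in which each group had its own coefficient, gave 5 contrasts, called at a Benjamini-Hochberg adjusted p under 0.05, and was tested on simulated data. The interaction is the LPS response in Lyz2-Cre minus that in Hdac3f/f. Alternatives were other scalings and filters, DESeq2 1.42.0, limma-voom (limma 3.58.1), a test against a change of 0.5, only the groups compared, a replicate block and leaving out each library. Leaving out both replicates 2 of Lyz2-Cre, and summing the Nlrp1 genes, were chosen after seeing the data.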

Additional observations from a re-analysis of the deposited data

Results flagged for a closer look

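For 5 of the 10 genes the LPS response was called different between the genotypes, where 8.12% of all tested genes were called. The test was the interaction test (edgeR, log2 response in Lyz2-Cre minus that in Hdac3f/f, n = 3 libraries in each of 4 groups). The difference was -1.69 ± 0.25 for Il18 (adjusted p = 0.00222), -1.17 ± 0.16 for Gsdmd (adjusted p = 0.00159), -0.92 ± 0.23 for Mefv (adjusted p = 0.0293) and -0.71 ± 0.18 for Pycard (adjusted p = 0.0276). Nlrp1b had the opposite sign, 2.51 ± 0.58 (adjusted p = 0.0213). The calls of Il18 and Gsdmd held in all 21 other settings. Those of Mefv and Pycard were each lost in 11 of 21, and that of Nlrp1b in 9 of 22.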

How the results depend on the processing

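Of 1095 values of single genes under 23 other settings, 1017 kept their side of the threshold with their direction where called, 61 lost a call, 17 gained one and 0 called values reversed. For 35 of 50 combinations of gene and comparison no setting changed the call. With the replicate block, Nlrc4 in Hdac3f/f with LPS (0.61, adjusted p = 0.0427), Gsdmd without LPS (0.34, adjusted p = 0.0432) and Nlrp3 between genotypes with LPS (-0.34, adjusted p = 0.0410) became called, and no other call of the 10 genes changed. The numbers were not taken to pair the samples: deviations of same-numbered libraries correlated between -0.40 and 0.22, and only 5 of 18 pairs were above 0.1, although replicates 2 of both Lyz2-Cre groups shared the near absence of Nlrp1a and Nlrp1c-ps.

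With library totals members called were 2 lower with LPS in Hdac3f/f, 1 higher without LPS and 2 lower in the interaction. The 1 higher without LPS was Gsdmd (0.36, adjusted p = 0.0328), while Aim2 (adjusted p = 0.0779) and Mefv (0.0607) were no longer called. Partners called lower were 20 and 16 with LPS (Hdac3f/f, Lyz2-Cre). Between genotypes with LPS 10 partners were higher and 3 lower, and 6 were lower in the interaction. With no filter, partners called lower were 4 without LPS and 18 in the interaction, and with DESeq2 they were 1 and 17. Fitting only the groups compared gave 1 member and 8 partners higher without LPS, and limma-voom 0 members higher in the interaction. Against a change of 0.5, members called were 0 higher without LPS, 1 higher and 2 lower with LPS, and 0 higher and 2 lower in the interaction. Partners were then 6 and 6 lower with LPS (Hdac3f/f, Lyz2-Cre), 1 higher and 1 lower without LPS, 2 and 2 between genotypes with LPS, and 0 higher and 1 lower in the interaction. Without both replicates 2 of Lyz2-Cre, members were 0 higher without LPS and 0 higher and 2 lower in the interaction, and partners 5 and 1, 2 and 4, and 0 and 5. Leaving out 1 library at a time, members ran from 0 to 2 higher without LPS, and from 0 to 1 higher and 2 to 4 lower in the interaction, and partners from 2 to 18 higher and 0 to 3 lower without LPS, 2 to 8 and 4 to 15 with LPS, and 0 to 2 higher and 9 to 16 lower in the interaction. The causes were not tested.

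Over all genes, 1160 interaction calls became 1792 with DESeq2, 205 against a change of 0.5 and 415 without both replicates 2 of Lyz2-Cre. Calls between genotypes went from 1684 to 388 and 806 without LPS and from 4656 to 1140 and 2558 with LPS under the latter 2 settings. Calls with LPS in Lyz2-Cre went from 7564 to 4578 against a change of 0.5. Leaving out 1 library gave from 530 (without replicate 2 of untreated Hdac3f/f) to 1995 interaction calls (without replicate 1 of Hdac3f/f with LPS), from 779 to 2530 between genotypes without LPS (replicates 3 and 1 of untreated Hdac3f/f left out), and from 2798 to 6004 with LPS (replicate 1 of Lyz2-Cre and of Hdac3f/f with LPS left out). Among the 10 genes Nlrp1b had the fewest counts with LPS.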
